A study of Mus musculus with 12 samples.

Results

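The genes described here carry the signal of the insulin receptor and the Igf1 receptor into the cell. They are Igf1r, Insr, Irs1, Irs2, Grb7, Pik3r1, Akt1, Akt2, Foxo1 and Foxo3, 10 of the 55401 genes in a count table of mouse liver RNA. They were taken by symbol, and all 10 were among the 13205 genes with enough reads to be tested.

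RNA-seq was performed on whole livers of 6 iTgMir483 and 6 Control mice, all of them female and aged 15 weeks after birth. The iTgMir483 mice, on a C57BL/6J background, carried an added copy of the microRNA gene Mir483 under a Tet-off switch at the Rosa26 locus, which doxycycline silences. CMV-Cre had removed the Neo selection cassette of the allele early in development, in all tissues, so that the transgene was not restricted to the liver. Doxycycline was given to the dams during pregnancy and then withdrawn, so Mir483 was over-expressed from birth onwards. Controls were littermates, and the alleles they carried at Rosa26 and the feeding state of the mice at collection are not given in the sources used here. The comparison asks how the liver transcriptome of mice with lasting Mir483 over-expression differs from that of controls, here for the receptors of the growth and metabolic hormones and the proteins below them.

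Insulin and Igf1 bind related receptor tyrosine kinases, Insr and Igf1r. An activated receptor phosphorylates the docking proteins Irs1 and Irs2, which recruit phosphoinositide 3-kinase through its regulatory subunit Pik3r1, and the lipid it makes brings the kinases Akt1 and Akt2 to the membrane. Akt keeps the transcription factors Foxo1 and Foxo3 out of the nucleus, where they would otherwise switch on genes of glucose output and, in liver, Irs2 and Insr themselves. Hepatocytes respond mainly to insulin and make the circulating Igf1, while Igf1r in liver is mostly found on the other cell types.

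The labels were checked first. Mir483 had 0 counts in each of the 6 Control livers, which allows up to 0.274 CPM (counts scaled to 1000000 per library) in the shallowest of them, and 23.3 to 54.3 CPM in the iTgMir483 livers, at least 84.9-fold higher. These are reads of poly(A) libraries at the Mir483 gene, so they check the labels and do not measure the mature microRNAs. The libraries held 12244123 to 30431286 counts. Hepatocyte markers, with albumin among them, summed to 137881 to 187592 CPM in Control and 75758 to 144176 CPM in iTgMir483 livers. The 10 macrophage markers summed to 246.2 to 377.8 CPM in Control and 389.9 to 1066 CPM in iTgMir483 livers, and 7 of them were called higher (the rule is given with the members). The 10 cholangiocyte markers summed to 39.5 to 64.4 CPM against 77.0 to 120.6 CPM, with 4 of the 7 tested called higher. The sums of sinusoidal endothelial markers (430.1 to 515.4 CPM against 389.4 to 552.7 CPM) and stellate cell markers (570.3 to 717.1 CPM against 610.8 to 736.7 CPM) overlapped. In each of these 2 lists 1 of 10 markers was called higher, and 2 of the 10 hepatocyte markers were called lower. Over all genes tested, 11.3% were called higher and 7.33% lower. Replicate 1 of both groups and iTgMir483 replicate 4, which had the highest macrophage sum and the lowest hepatocyte sum, stood apart from the other libraries. By chi-square per gene, Control replicate 1 lay 83.9 to 100.4 from the other Control livers, which lay 22.2 to 37.9 from each other. With both replicate 1 libraries left out the same 4 members were called. In bulk liver, fewer cells of a type and less RNA per cell cannot be told apart.

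The microRNA products and the members that hold a match to them are shown because they are where the transgene could touch this pathway by sequence. The mature sequences, credited to RefSeq (GRCm38.p6), are given with the seed, bases 2 to 8, in capitals. They lie at chr7:142654932-142654952 and chr7:142654968-142654989, both on the minus strand, within Igf2.
miR-483-3p: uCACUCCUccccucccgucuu
miR-483-5p: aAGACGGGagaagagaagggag
The search used the 7 letters complementary to each seed, AGGAGTG and CCCGTCT, on the sense strand of the longest annotated 3′ UTR (untranslated region) of each gene. Irs1 was the only member with a match to miR-483-3p, followed by an A, at position 1424 of its 4525-base 3′ UTR. Foxo1 was the only member with a match to miR-483-5p, at position 5040 of 6240 bases. Each stands in 25 bases, with the match in capitals, beside the match of Igf1, the ligand that is the study's main subject.
Irs1 (chromosome 1, 82236196 to 82236202, minus strand): acatctagttAGGAGTGaaaatgtg
Foxo1 (chromosome 3, 52352021 to 52352027, plus strand): cgtgtgtcccCCCGTCTggtgagct
Igf1 (chromosome 10, 87930908 to 87930914, plus strand): catcgtctttAGGAGTGtttgttta
Of the 12091 tested genes with a 3′ UTR, 12.6% held the miR-483-3p letters and 3.26% the miR-483-5p letters. Longer 3′ UTRs hold the letters more often. Among genes with a 3′ UTR within a factor of 0.8 of the member's length, shorter or longer, the miR-483-3p letters were held by 28.1% of 933 genes for Irs1, and the miR-483-5p letters by 10.1% of 425 genes for Foxo1. The 3′ UTR of Igf1r, of 7267 bases, held neither, where 45.3% of the 258 genes of like length held the miR-483-3p letters. For the members, a match is a run of letters and not a shown site, and its absence says only that the letters are not in that UTR. For Igf1, the paper reported a test of these letters in a luciferase reporter that held part of the 3′ UTR. A miR-483-3p mimic lowered that reporter, and did not lower one with the letters mutated.

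Among the 10 genes, Igf1r, Irs2 and Akt1 were higher in iTgMir483 livers and Grb7 was lower at a Benjamini-Hochberg adjusted p under 0.05 (edgeR quasi-likelihood test over all 13205 genes). The other 6 did not pass. Over all genes tested, 11.3% were called higher and 7.33% lower by the same rule, so the 3 higher and 1 lower members are a count to be read against about 1 in each direction. Igf1r was also the only member that passed this threshold with a fold change over 1.5 in either direction, a joint rule that called 8.41% of all genes higher and 2.73% lower. Igf1r and Akt1 were the 2 members whose groups did not overlap, as held for 7.92% of all genes. The median log2 fold change of the 10 genes was 0.038, against 0.0058 for all genes tested. The fold changes of the 10 genes are plotted with their errors.

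**Figure D1:**
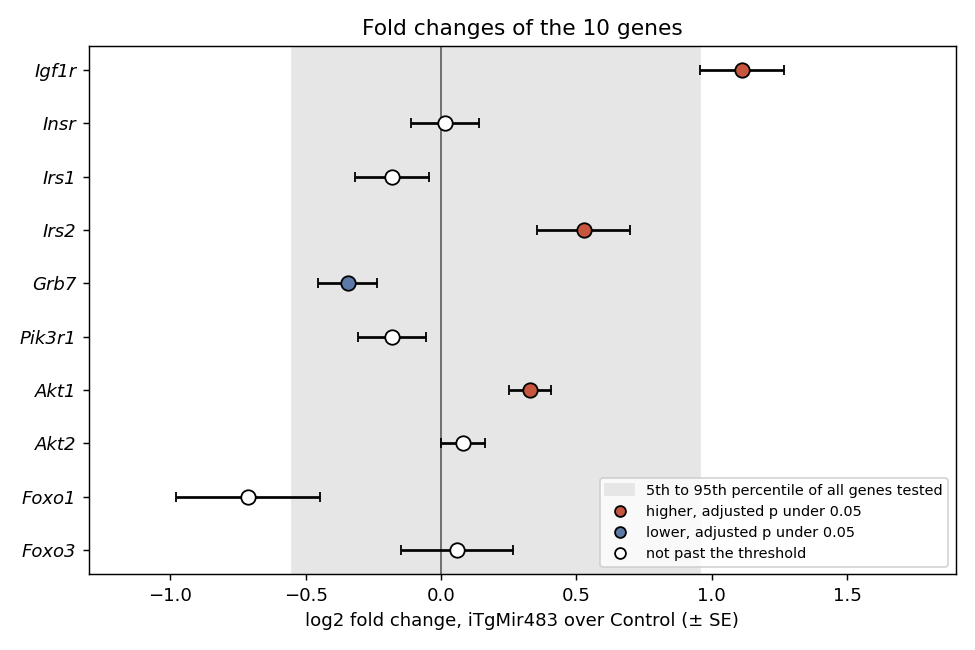
Log2 fold change (horizontal axis, iTgMir483 over Control, bars ± SE) of the 10 genes, filled where the adjusted p is under 0.05. Igf1r, at 1.11, lies beyond the grey band that holds the middle of all genes tested (5th percentile -0.55, 95th percentile 0.96), as does Foxo1 at -0.71 on the other side, which did not pass.

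Igf1r, the receptor tyrosine kinase for Igf1 (ENSMUSG00000005533, chromosome 7, 67952827 to 68233668, plus strand), had 4.02, 5.75, 4.32, 4.07, 4.08 and 4.30 CPM in Control replicates 1 to 6. In iTgMir483 replicates 1 to 6 it had 7.72, 6.92, 9.90, 9.45, 11.1 and 12.3 CPM. Every iTgMir483 liver was above every Control liver. The means were 4.42 ± 0.663 CPM and 9.56 ± 2.02 CPM (SD, n = 6), a log2 fold change of 1.11 ± 0.156 (SE, edgeR adjusted p = 0.000612), or 2.16-fold. A two-sided exact permutation test that reassigns the 6 and 6 mice gave p = 0.0022, the smallest it can give. The values rest on 47 to 177 counts per library. With any single library left out the log2 fold change was 1.03 to 1.20 and the adjusted p at most 0.00245.

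Igf1r was the least abundant of the 10 genes by a wide margin. Per kb of merged exon length it stood at 0.263 ± 0.0395 CPM per kb in Control livers (SD, n = 6), below Irs1 at 3.40 ± 0.647 CPM per kb, the next gene up. Insr, the insulin receptor (ENSMUSG00000005534, chromosome 8, 3122061 to 3279617, minus strand), stood at 13.2 ± 1.45 CPM per kb. Of the summed level per kb of both receptors, Igf1r made up 1.65% to 2.45% in the Control livers and 3.23% to 4.89% in the iTgMir483 livers. The shares did not overlap, and in both groups nearly all receptor message was Insr.

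Insr itself ranged from 145.4 to 198.4 CPM (median 189.1) in Control and from 133.3 to 231.9 CPM (median 183.2) in iTgMir483 livers. The ranges overlapped widely, and the log2 fold change was 0.016 ± 0.125 (SE, edgeR adjusted p = 0.944). The macrophage and cholangiocyte sums given above were higher in the same group as Igf1r, and their part in the Igf1r difference was not tested. In iTgMir483 replicates 1 to 6 the macrophage sums were 467.3, 473.7, 389.9, 1066, 561.1 and 683.8 CPM. The cholangiocyte sums of the same libraries were 84.7, 83.5, 120.6, 77.0, 112.9 and 110.9 CPM.

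**Figure D2:**
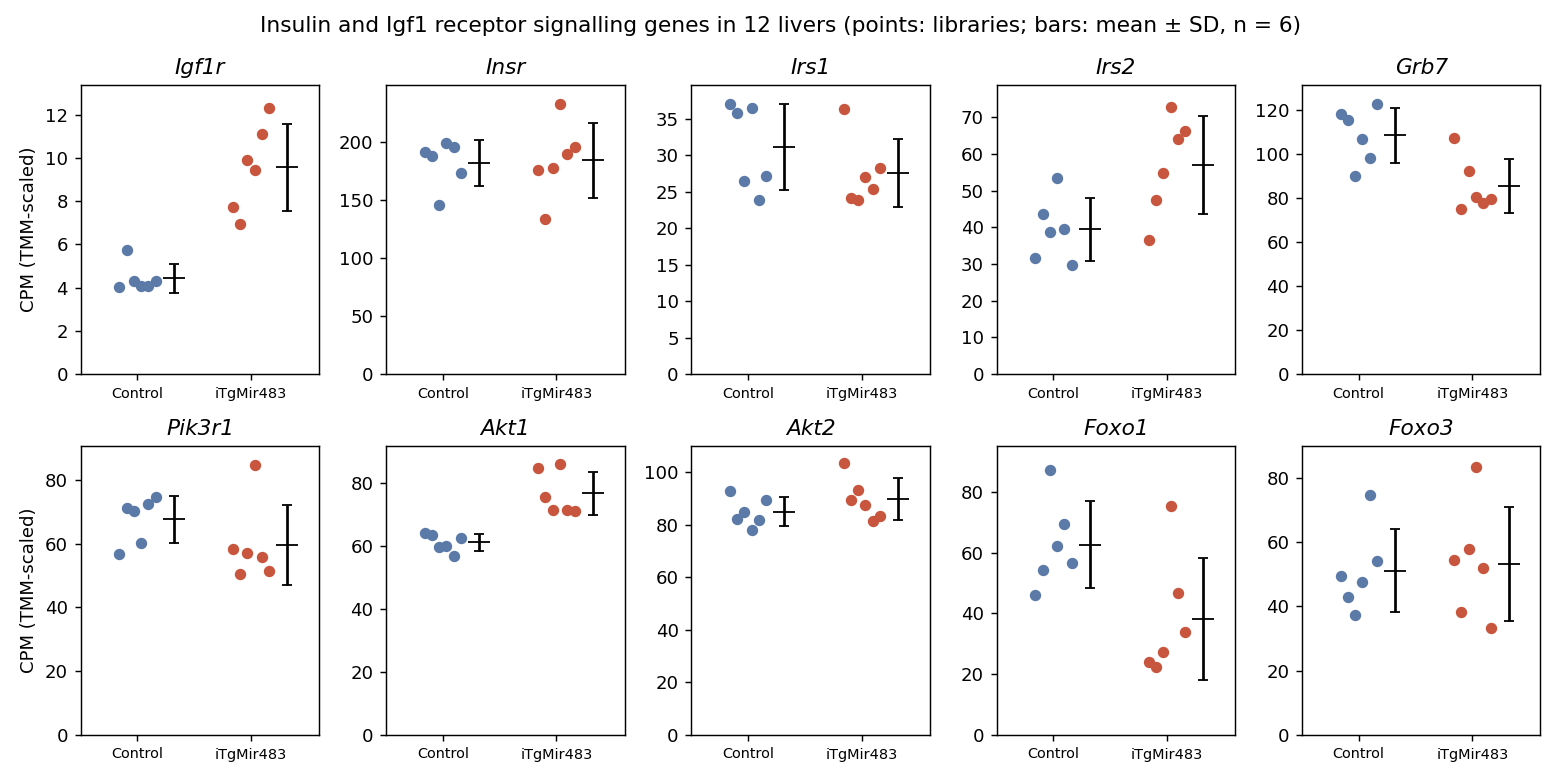
TMM-scaled CPM (vertical axes, each from 0) of the 10 genes in 6 Control (blue) and 6 iTgMir483 (red) livers, one point per library, with the mean and SD beside the points. The groups separate for Igf1r and Akt1, shift but overlap for Irs2, Grb7 and Foxo1, and cover much the same range for Insr, Irs1, Akt2 and Foxo3.

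The ligands and the other receptors were examined next. Igf1 message, made mostly by hepatocytes, was at 314.7 to 575.8 CPM in Control and at 91.5 to 211.6 CPM in iTgMir483 livers. It fell with no overlap between groups (log2 fold change -1.51, edgeR adjusted p = 0.000371), so the ligand and its receptor changed in opposite directions. Igf2r, the receptor that clears Igf2 and does not signal through Akt, had 43.0 to 58.3 CPM in Control and 39.2 to 102.4 CPM in iTgMir483 livers, and its log2 fold change of 0.57 (SE 0.193) did not pass (adjusted p = 0.0543 by edgeR). Igf2 had at most 2 counts in any library, Insrr at most 5, and the insulin genes Ins1 and Ins2 had 0. None of these 4 was tested.

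Irs1 and Irs2 are the main docking proteins of liver. Irs2 was called higher, and Irs1 did not pass. Irs2 (ENSMUSG00000038894, chromosome 8, 10984681 to 11008458, minus strand) had 31.8, 43.5, 38.8, 53.6, 39.5 and 29.7 CPM in Control replicates 1 to 6 and 36.5, 47.4, 54.9, 72.9, 64.2 and 66.3 CPM in iTgMir483 replicates 1 to 6. Of the 6 iTgMir483 livers, 4 were above every Control liver, and replicates 1 and 2 were within the Control range. The means were 39.5 ± 8.61 CPM and 57.0 ± 13.5 CPM (SD, n = 6), a log2 fold change of 0.53 ± 0.172 (SE, edgeR adjusted p = 0.0456). The exact permutation test gave p = 0.026. The call is close to the threshold. It was kept without Control replicate 4, iTgMir483 replicate 1 or iTgMir483 replicate 2, and lost when any 1 of the other 9 libraries was left out (log2 fold change 0.44 to 0.63, adjusted p 0.0114 to 0.0912 over all 12).

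Irs1 (ENSMUSG00000055980, chromosome 1, 82233101 to 82291416, minus strand) ranged from 23.8 to 37.0 CPM (median 31.5) in Control and from 23.9 to 36.4 CPM (median 26.2) in iTgMir483 livers. Its highest iTgMir483 value was in replicate 1, and the other 5 lay between 23.9 and 28.2 CPM. The log2 fold change was -0.18 (SE 0.137) and did not pass (adjusted p = 0.383 by edgeR), in the member that holds the miR-483-3p match. On the log2 scale and per kb, the ratio of Irs1 to Irs2 within a library was -0.87 ± 0.348 in Control and -1.56 ± 0.526 in iTgMir483 livers (SD, n = 6), and the ranges overlapped. Irs1 shares 2822 of its 9144 exon bases with Gm9747 on the other strand, and Irs2 162 of 6323 with 9530052E02Rik. These antisense genes had at most 8 and 4 counts in any library.

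The promoters of Irs1 and Irs2 are shown because they are the members whose promoters hold both an E-box, CACGTG, and TGTTTTG, a core of elements that FoxO proteins bind. The stretches come from RefSeq (GRCm38.p6) and read along the gene. Capitals mark the 2 motifs, and positions are counted back from the RefSeq start, whose base is not included.
Irs2 (chr8:11008930-11009009, minus strand, positions -80 to -1): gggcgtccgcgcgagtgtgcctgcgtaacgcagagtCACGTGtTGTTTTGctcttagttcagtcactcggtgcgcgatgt
Irs1 (chr1:82291460-82291559, minus strand, positions -120 to -21): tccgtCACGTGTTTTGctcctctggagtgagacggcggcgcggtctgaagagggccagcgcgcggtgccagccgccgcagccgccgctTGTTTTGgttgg
In Irs2 the E-box began at position -44 and TGTTTTG at -37. The GENCODE gene given above starts at 11008458, downstream of this RefSeq start, so the Irs2 positions hold for the RefSeq start only. In Irs1 the E-box began at -115 and overlapped a TGTTTTG that began at -111, and a further TGTTTTG began at -32. Over all 32851 promoter windows of 300 bases, searched on both strands, 7.15% held CACGTG, 6.28% held TGTTTTG and 0.408% held both. The forkhead letters TGTTTAC were in 3.65% of the windows and, among the members, in Akt1 alone. The table had windows for 8 members, without Insr and Grb7. These matches describe letters only, and binding was not measured.

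Grb7 is an adaptor with an SH2 domain that binds activated receptors, Insr among them. Grb7 (ENSMUSG00000019312, chromosome 11, 98446394 to 98455373, plus strand) was the most abundant member per kb in both groups, at 32.2 ± 3.72 CPM per kb in Control and 25.4 ± 3.63 CPM per kb in iTgMir483 livers (SD, n = 6). In Control replicates 1 to 6 it had 117.9, 115.2, 90.1, 106.5, 97.9 and 122.5 CPM, and in iTgMir483 replicates 1 to 6 it had 107.2, 74.9, 92.1, 80.6, 77.6 and 79.6 CPM. Of the iTgMir483 livers, 4 were below every Control liver, and replicates 1 and 3 were not. The log2 fold change was -0.34 ± 0.109 (SE, edgeR adjusted p = 0.0395, exact permutation p = 0.0152). The call was kept without Control replicate 3, Control replicate 5 or iTgMir483 replicate 1, and lost when any 1 of the other 9 libraries was left out (adjusted p up to 0.0794). The Grb7 relatives Grb10 and Grb14 also bind the insulin and Igf1 receptors and restrain them. Grb10 was scarce, at 2.58 to 4.51 CPM in Control and 4.64 to 6.78 CPM in iTgMir483 livers, and rose with no overlap (log2 fold change 0.67, edgeR adjusted p = 0.0127). For Grb14, more abundant in liver, the value was 0.33 and did not pass (adjusted p = 0.0798).

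Pik3r1 makes the p85 regulatory subunit and its shorter forms, which hold the catalytic subunits of phosphoinositide 3-kinase. Pik3r1 (ENSMUSG00000041417, chromosome 13, 101680563 to 101768217, minus strand) ranged from 56.8 to 74.8 CPM (median 70.8) in Control livers. In iTgMir483 livers, 5 lay between 50.5 and 58.5 CPM and replicate 4 was at 84.6 CPM. The log2 fold change was -0.18 ± 0.125 (SE, edgeR adjusted p = 0.336). Without iTgMir483 replicate 4 it was -0.31 and passed (adjusted p = 0.0368).

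Akt1 rose and Akt2 did not pass. Akt1 (ENSMUSG00000001729, chromosome 12, 112653821 to 112674884, minus strand), the more widely used Akt kinase, had 63.9, 63.4, 59.5, 60.0, 56.8 and 62.5 CPM in Control replicates 1 to 6. In iTgMir483 replicates 1 to 6 it had 84.6, 75.4, 71.2, 85.9, 71.4 and 71.1 CPM. All 6 iTgMir483 livers were above all 6 Control livers, although the difference was small. The means were 61.0 ± 2.74 CPM and 76.6 ± 6.90 CPM (SD, n = 6), a log2 fold change of 0.33 ± 0.0778 (SE, edgeR adjusted p = 0.0102) or 1.26-fold, with an exact permutation p = 0.0022. The spread among Control livers, 4.49% of the mean, was the lowest of the 10 genes. No library left out changed the call (adjusted p 0.0132 to 0.0286).

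Akt2 (ENSMUSG00000004056, chromosome 7, 27591552 to 27640826, plus strand), the Akt kinase most tied to insulin action in liver, ranged from 78.0 to 93.0 CPM (median 83.7) in Control and from 81.6 to 103.7 CPM (median 88.6) in iTgMir483 livers. Its log2 fold change of 0.081 ± 0.0815 did not pass (SE, edgeR adjusted p = 0.520). Per kb, Akt1 made up 54.5% to 57.3% of the sum of both kinases in Control and 57.0% to 63.0% in iTgMir483 livers, ranges that just overlap.

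Foxo1 had the largest difference among the members that did not pass, and its call depended on a single library and on the test. Foxo1 (ENSMUSG00000044167, chromosome 3, 52268336 to 52353221, plus strand), the FoxO factor most tied to glucose output in liver, had 46.2, 54.2, 87.2, 62.2, 69.5 and 56.4 CPM in Control replicates 1 to 6. In iTgMir483 replicates 1 to 6 it had 24.0, 22.3, 27.3, 75.2, 46.6 and 33.9 CPM. Of the iTgMir483 livers, 4 were below every Control liver, replicate 5 was level with the lowest Control liver and replicate 4 was above all but 1 of them. The means were 62.6 ± 14.4 CPM and 38.2 ± 20.1 CPM (SD, n = 6), a log2 fold change of -0.71 ± 0.267 (SE, edgeR adjusted p = 0.0766, exact permutation p = 0.0303). Without iTgMir483 replicate 4 the log2 fold change was -1.02 and passed (adjusted p = 0.00448), and with DESeq2 and limma-voom on all libraries it also passed (adjusted p 0.0377 and 0.0400). Of the 9 alternatives other than a single library left out, 3 passed, these and the replicate block. The robust edgeR fit did not pass (adjusted p = 0.104). On counts simulated with known changes, false calls were 12.5% of the calls of DESeq2, 4.44% of those of limma-voom and 3.37% of those of edgeR. The simulation used the spread per gene that edgeR estimated and changed 200 genes only, so these shares do not carry over to the calls made here.

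Foxo3 (ENSMUSG00000048756, chromosome 10, 42181841 to 42276755, minus strand), a related factor, ranged from 37.4 to 74.7 CPM (median 48.7) in Control and from 33.3 to 83.3 CPM (median 53.2) in iTgMir483 livers, a log2 fold change of 0.060 ± 0.206 (SE, edgeR adjusted p = 0.868). The log2 ratio of Foxo1 to Foxo3 per kb was 0.10 ± 0.499 in Control and -0.75 ± 0.527 in iTgMir483 livers (SD, n = 6), and the ranges overlapped. In both groups Foxo1 or Foxo3 had the widest relative spread of the 10 genes. Foxo1 shares 674 of its 8665 exon bases with Gm20402 on the other strand, which had at most 6 counts in any library.

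Ordered by level per kb in Control livers, the members ran Grb7, Akt1, Insr, Akt2, Foxo1, Foxo3, Pik3r1, Irs2, Irs1 and Igf1r. The ranges of neighbours did not overlap between Grb7 and Akt1, between Akt2 and Foxo1, between Irs2 and Irs1 or between Irs1 and Igf1r. The neighbours from Akt1 to Akt2, and those from Foxo1 to Irs2, overlapped and so are not ordered by these data. In iTgMir483 livers Irs2 stood 5th, at 9.02 ± 2.13 CPM per kb, and Foxo1 8th, at 4.41 ± 2.32 CPM per kb (SD, n = 6), while the first 4 and last 2 places were held by the same genes.

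The rest of the pathway was read from 10 lists of 125 genes by role, the members included, of which 117 were tested. Of these, 16 were called higher and 9 lower. Without the 10 members, 13 of 107 (12.1%) were higher and 8 (7.48%) lower, shares near the 11.3% and 7.33% of all genes. In most lists few genes passed, and those that passed went both ways, as the plot by role shows. The counts given for each list below are to be read against the same shares of all genes. Of the 25 called genes, 15 passed with any single library left out. The other 10 did not. Of the 12 such fits, Cited2 passed in 8, Pik3cg in 7, Deptor in 6, Socs3 in 5, Irs2, Grb7, Pde3b, Rheb and Eif4e in 3, and Txnip in 2.

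**Figure D3:**
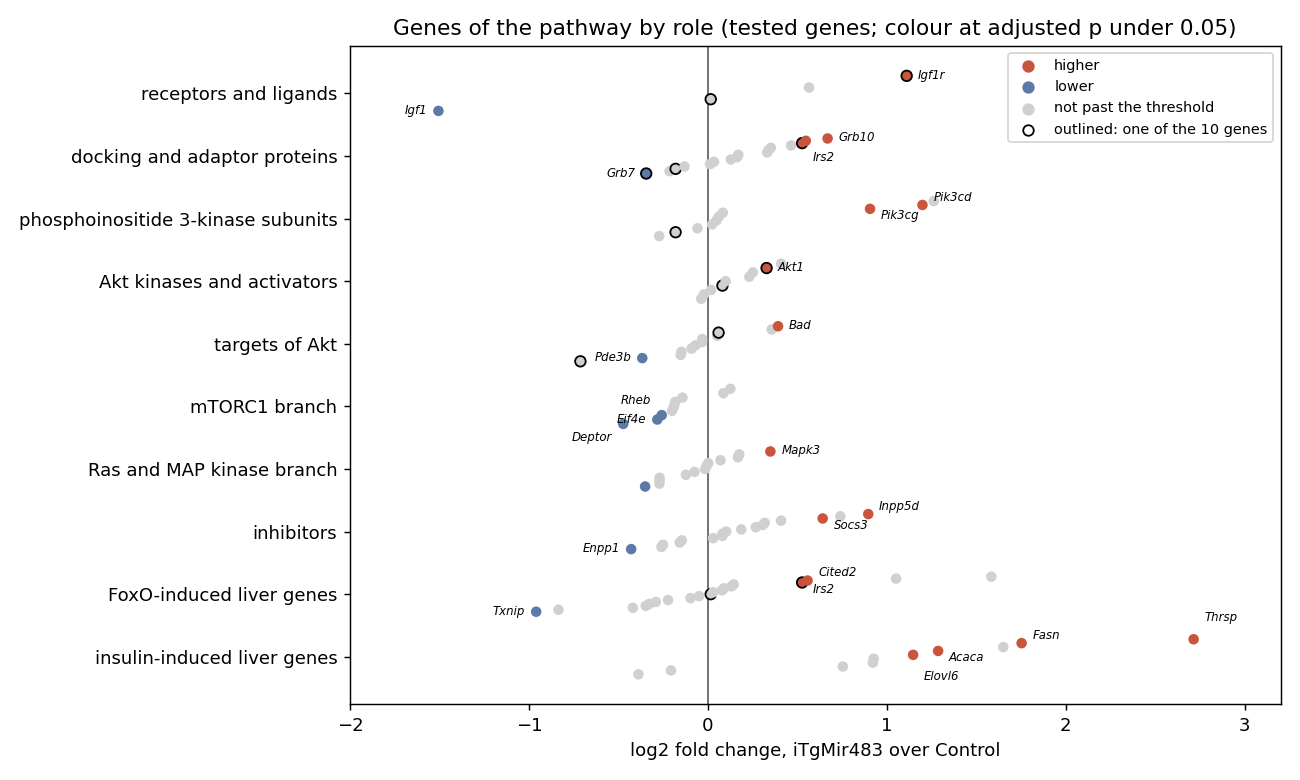
Log2 fold change (horizontal axis, iTgMir483 over Control) of each tested pathway gene, in rows by role, coloured where the adjusted p is under 0.05 and outlined for the 10 members. Of the 10 lists, the insulin-induced liver genes have the highest median (1.04), 4 of their 10 tested genes being called higher. Over all genes tested, 11.3% were called higher.

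Of the 16 docking and adaptor proteins tested, 3 were higher (18.8%) and 1 was lower (6.25%). Irs2 and Grb10 were among the higher genes, and Grb7 was the lower one. Of the 9 Akt kinases and activators, Akt1 alone passed, and Mtor, the kinase that completes Akt activation as part of mTORC2, followed at 0.41 ± 0.141 (SE, edgeR adjusted p = 0.0561). Among 12 tested targets of Akt, Bad, which promotes cell death until Akt phosphorylates it, rose by 0.39 (adjusted p = 0.0169) and Pde3b, which lowers cyclic AMP in response to insulin, fell by 0.37 on the log2 scale (adjusted p = 0.0386).

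Of the 9 genes of the mTORC1 branch, which drives protein synthesis, none was higher and 3 were lower. These 3 are 33.3% of the branch, where 7.33% of all genes tested were called lower. Rheb, the small GTPase that switches mTORC1 on, had a log2 fold change of -0.26 (adjusted p = 0.0470 by edgeR). Eif4e, the cap-binding translation factor, had -0.28 (adjusted p = 0.0459), and Deptor, an inhibitor of mTOR, had -0.47 (adjusted p = 0.0347). All 3 were close to the threshold, and with a library left out the adjusted p reached 0.104 for Rheb, 0.0968 for Eif4e and 0.0726 for Deptor.

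Of the 13 genes of the Ras and MAP kinase branch, 1 was called higher and 1 lower. The higher one, the kinase Mapk3 (ERK1), had 28.3 to 34.9 CPM in Control and 37.2 to 44.4 CPM in iTgMir483 livers, with no overlap, and rose by 0.35 on the log2 scale (SE 0.0829, edgeR adjusted p = 0.0103).

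Of the 10 phosphoinositide 3-kinase subunits, Pik3cd and Pik3cg, catalytic subunits found mainly in leukocytes, were called higher. Pik3cd had 4.39 to 7.36 CPM in Control and 7.44 to 30.0 CPM in iTgMir483 livers, a log2 difference of 1.20 ± 0.291 (SE, edgeR adjusted p = 0.0117), and that of Pik3cg was 0.91 ± 0.273 (SE, adjusted p = 0.0326). Pik3r5, a regulatory subunit of leukocytes, came next with 1.26 ± 0.427 (SE, adjusted p = 0.0528). In contrast, the log2 fold change was 0.024 for Pik3ca and -0.058 for Pik3cb (adjusted p = 0.906 and 0.817), the catalytic subunits most used by hepatocytes. Among 17 tested inhibitors, Inpp5d (SHIP1), a phosphatase of blood cells, rose by 0.90 ± 0.228 (SE, adjusted p = 0.0145), Socs3, induced by cytokines, rose by 0.64 (adjusted p = 0.0338), and Enpp1, which blocks the insulin receptor, fell by 0.43 on the log2 scale (adjusted p = 0.00869).

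The leukocyte genes and the macrophage markers were highest in the same library. The same held for the 10 neutrophil markers, of which 3 were tested and called higher, with sums of 3.58 to 6.27 CPM in Control and 7.68 to 31.7 CPM in iTgMir483 livers. The sums of the 10 T, B and NK lymphocyte markers overlapped, at 5.67 to 12.0 CPM in Control and 5.90 to 9.49 CPM in iTgMir483 livers. Of the 4 lymphocyte markers tested, 1 was called higher. In iTgMir483 replicate 4 Pik3cd had 30.0 CPM, Pik3cg 4.25 CPM and Inpp5d 21.5 CPM, the macrophage markers summed to 1066 CPM and the neutrophil markers to 31.7 CPM, close to the 30.6 CPM of iTgMir483 replicate 1. Without replicate 4 Pik3cd and Inpp5d still passed, with log2 fold changes of 0.80 and 0.63 (adjusted p = 0.00650 and 0.0127), and Pik3cg did not (0.71, adjusted p = 0.0699). The part of macrophages, neutrophils and lymphocytes in these calls was not tested.

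**Figure D4:**
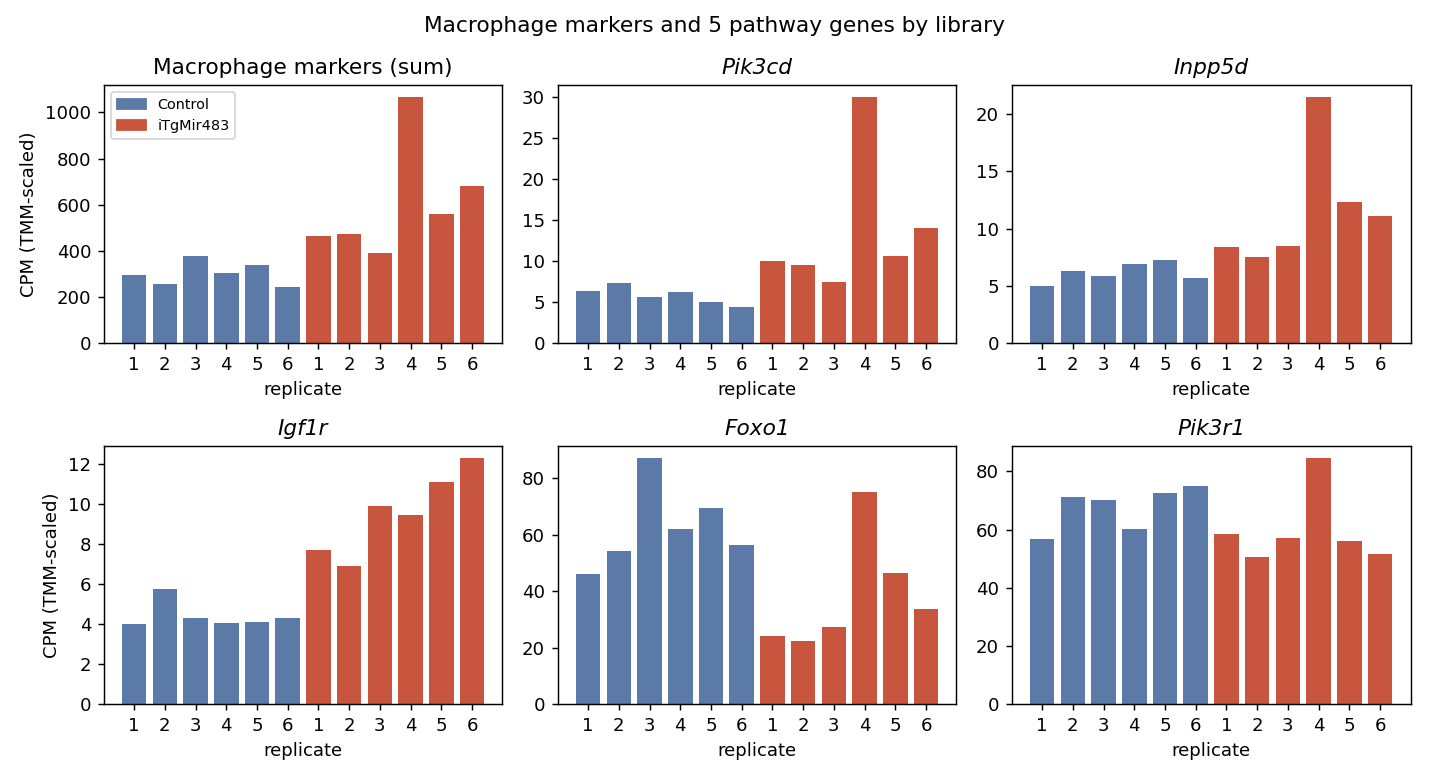
TMM-scaled CPM (vertical axes, from 0) in each library (replicate number on the horizontal axis; blue Control, red iTgMir483) of the summed macrophage markers and 5 pathway genes. iTgMir483 replicate 4 is the highest library for the markers (1066 CPM), Pik3cd, Inpp5d and Pik3r1 and the highest of its group for Foxo1, but not for Igf1r.

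Genes that FoxO factors are known to induce in liver showed no common direction. Of 19 tested, Irs2 and Cited2 (log2 fold change 0.56, adjusted p = 0.0228 by edgeR) were higher and Txnip, which limits glucose uptake, was lower (-0.96, adjusted p = 0.0424). The median of the list was 0.016. The gluconeogenic enzymes Pck1 and G6pc had log2 fold changes of 0.13 and -0.22 (adjusted p = 0.743 and 0.674), and Igfbp1, a secreted Igf binding protein that insulin represses, ranged from 61.0 to 254.6 CPM in Control and from 46.7 to 1335 CPM in iTgMir483 livers (1.58, SE 0.577, adjusted p = 0.0691).

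Of 10 tested genes that insulin induces in liver, 4 were higher (40%, against 11.3% of all genes tested) and none lower. They were the fatty acid synthesis genes Fasn (log2 fold change 1.75, adjusted p = 0.00649 by edgeR), Acaca (1.29, adjusted p = 0.00110), Elovl6 (1.15, adjusted p = 0.00826) and Thrsp (2.71, adjusted p = 0.00773, and 1.77 without iTgMir483 replicate 4). Srebf1, the transcription factor that insulin uses for lipogenic genes, did not pass at 0.93 ± 0.504 (SE, adjusted p = 0.216). Within this list, then, the genes that passed were all lipogenic.

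The adjusted p of each member under every alternative is plotted. Igf1r and Akt1 passed in all 21, Insr, Irs1, Akt2 and Foxo3 in none, and Irs2, Grb7, Pik3r1 and Foxo1 crossed the threshold in at least 1. With no count filter Akt1 passed only just (edgeR adjusted p = 0.0496).

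**Figure D5:**
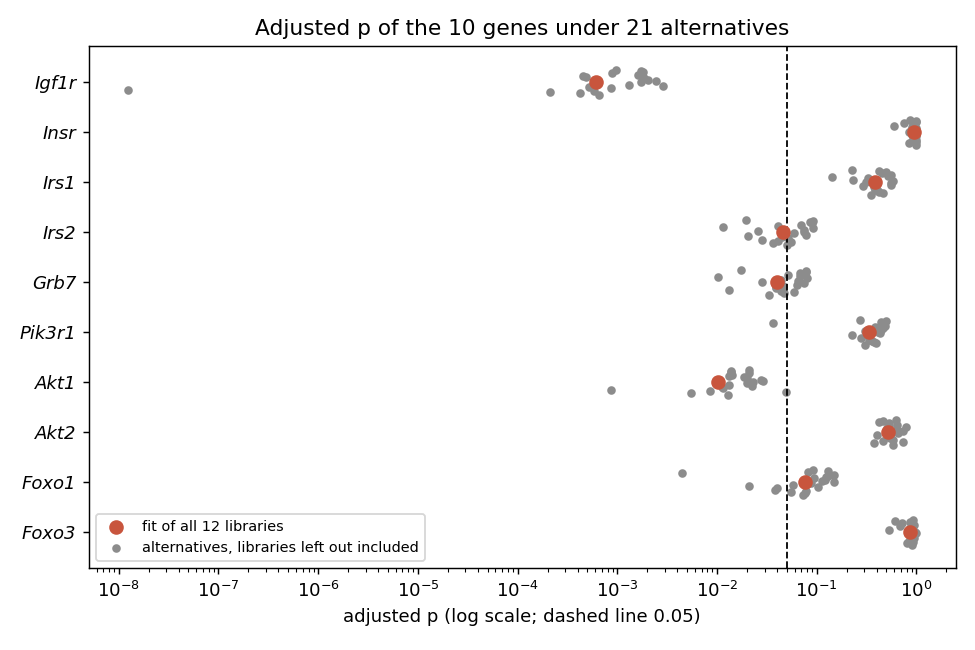
Adjusted p (horizontal log axis, dashed line at 0.05) of the 10 genes in the fit of all 12 libraries (red) and under 21 alternatives (grey), among them each library left out. The points of Igf1r lie at 0.00289 or lower and those of Irs2 and Grb7 on both sides of the line.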

How the data were processed

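The authors prepared stranded poly(A) libraries (TruSeq Stranded mRNA) from liver RNA, sequenced them as paired-end reads, and aligned and counted them with STAR 2.5.0a on GRCm38 with Ensembl version 100. The table they deposited holds unnormalised read counts for each gene, and the strand column that was counted is not given in the sources used here. Symbols, coordinates and merged exon lengths came from GENCODE M21 (GRCm38). Seed letters were searched in its 3′ UTRs, and the promoter and microRNA sequences are from RefSeq.

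Genes were kept with filterByExpr, library sizes were scaled by TMM (trimmed mean of M-values), and groups were compared with the quasi-likelihood test of edgeR 4.0.16 in R 4.3.3 (limma 3.58.1) with group as the only term. CPM use the TMM-scaled library sizes. P-values were adjusted over all 13205 genes, with a threshold of 0.05. SE is the log2 fold change divided by the root of F. With 6 mice a group, which the series describes as biological replicates, single values were also tested by exact permutation. Alternatives were other scalings and filters, DESeq2 1.42.0, limma-voom, a robust fit, a replicate block and libraries left out. On simulated counts for 13017 genes edgeR recovered 82.7% of genes changed by 1 and 98.9% of those changed by 2 on the log2 scale, with 3.37% false calls. DESeq2 gave 12.5% false calls and limma-voom 4.44%. False calls are given as a share of the calls. The simulation used the spread per gene that edgeR estimated and changed 200 genes, all by 1 or 2. It therefore does not give the recovery of smaller changes, such as those of Akt1, Grb7, Irs2 and Foxo1.

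The members, lists and motifs were chosen with earlier results of these data known. Genes named are the 10 members, Mir483, Igf1, Igf2, Igf2r and, in each list, those that passed, or the 2 of smallest p where fewer than 2 passed. Other genes named (Grb14, Insrr, Ins1, Ins2, Pik3r5, Pik3ca, Pik3cb, Pck1, G6pc, Igfbp1, Srebf1 and antisense genes) were chosen after their values were seen. Some genes of the lists are counted but not reported here by name. Floors of 3 counts cover counting error only, since the reads carry no molecular identifiers. No pair of libraries of a group agreed within sampling noise (smallest chi-square per gene 15.7). The table held 0 columns of no sample and 0 rows that named no gene.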

Additional observations from a re-analysis of the deposited data

Results flagged for a closer look

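Among 42 groups of 6 values (the 10 members, Igf1 and 10 marker lists in each group), 4 held a value set apart from the rest by Dixon's criterion, the ratio of the gap beside it to the group's range, where chance gives about 2.1. Igf1r in Control replicate 2 had 5.75 CPM, where the other Control livers had 4.02 to 4.32 CPM (ratio 0.823), still below every iTgMir483 liver. Irs1 in iTgMir483 replicate 1 was at 36.4 CPM against 23.9 to 28.2 CPM (ratio 0.654). Pik3r1 in iTgMir483 replicate 4 was at 84.6 CPM against 50.5 to 58.5 CPM (ratio 0.766), the library with the highest macrophage marker sum. Markers of the exocrine pancreas in Control replicate 1 summed to 14.4 CPM against 4.11 to 7.88 CPM (ratio 0.633), with Prss1, Cpa1 and Amy2a5 at 0 counts in every library.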

How the results depend on the processing

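The number of members called higher was 3, and 2 to 3 with a library left out. The number called lower was 1. It was 0 with no count filter, and 2 with DESeq2, limma-voom and the replicate block, where Foxo1 joined Grb7. With a library left out it was 0 to 2, and 9 of those 12 fits lost Grb7. Of the wider lists, 9 genes were called lower with all libraries and 3 to 8 with a library left out, the lowest without Control replicate 4 or iTgMir483 replicate 6. Irs2 also lost its call under RLE size factors, no count filter and limma-voom. The sign of Insr, which never passed, turned with no count filter (-0.0030) and without Control replicate 3, Control replicate 6, iTgMir483 replicate 4 or iTgMir483 replicate 6 (over all libraries left out in turn, -0.062 to 0.093). That of Foxo3 turned without Control replicate 3 (-0.017) or iTgMir483 replicate 4 (-0.11), over a range up to 0.20. The causes were not tested. Replicate numbers are shared by the groups but are not stated to pair mice, and only 2 of 6 same-numbered pairs had deviations correlated over 0.1 (0.490 and 0.194). With the replicate block 2519 genes were called, against 2457, and Foxo1 was the member whose call it changed (log2 fold change -0.82, adjusted p = 0.0208). Upper-quartile scaling moved the share of higher among all calls from 60.6% to 68.3%, and no scaling moved the median of all genes by 0.1. Igf1r had the fewest counts of the 10 members, 47 to 177 a library.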
